A study of Mus musculus with 16 samples.

Results

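The interferon response genes examined here are a list of 35 mouse genes that type I interferon is known to induce, chosen by symbol, and all 35 were among the 23337 gene symbols counted in every library. The list holds 3 transcription factors, 5 nucleic acid sensors, 5 members of the 2-5A synthetase family, 3 IFIT genes, 13 other antiviral effectors and 6 genes of ISG15, ubiquitin and ADP-ribose modification. RNA was sequenced from C57BL/6 mouse CD4+ T cells of the genotype Dgcr8f/f Tbet-/- CD4-cre, sorted as live RosaYFP+ cells. Cre under the T cell promoter CD4 removes Dgcr8, which most microRNAs need for their making, and all groups, the controls included, lack Dgcr8 and T-bet. The cells were activated through CD3 and CD28 with 10 U/ml IL-4 for 3 days and then kept in 20 U/ml IL-2 for 2 days. By electroporation on day 1 and again on day 4 they received 500 nM of a miRIDIAN mimic, a synthetic double-stranded microRNA. A control mimic and mimics of miR-24, miR-23a and miR-27a were used, each in 4 of the 16 libraries. All 4 mimics are double-stranded and no library is from cells without a mimic, so a response that all double-stranded mimics share would not show in any comparison here. The question asked was whether interferon response genes differ between the mimics in common or with 1 of them in particular.

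Type I interferon binds the receptor IFNAR1 and IFNAR2 on the cell surface, and the kinases JAK1 and TYK2 then phosphorylate STAT2. With IRF9 this becomes part of the factor ISGF3, which binds interferon-stimulated response elements in the promoters of genes such as Isg15, the Ifit genes and Mx1. Double-stranded RNA in the cytosol is sensed by RIG-I (Ddx58), MDA5 (Ifih1), PKR (Eif2ak2) and the 2-5A synthetases, and several of these sensors are themselves interferon-induced.

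The sequences of the 3 microRNAs are shown because matches to their seeds are reported for the interferon response genes. The mature 3p arms are from RefSeq (GRCm38.p6), 5′ to 3′, with the seed, bases 2 to 8, in capitals. Since the labels name no arm, the 3p arms are assumed, and the sequence of the control mimic was not used here.
mmu-miR-23a-3p: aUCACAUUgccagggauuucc
mmu-miR-24-3p: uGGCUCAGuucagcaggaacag
mmu-miR-27a-3p: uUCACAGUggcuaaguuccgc
All 3 lie on the plus strand of chromosome 8, at chr8:84208563-84208583 for miR-23a, chr8:84208875-84208896 for miR-24 and chr8:84208727-84208747 for miR-27a, and miR-24 has a second locus of the same mature sequence. The seeds of miR-23a and miR-27a differ at 1 of 7 bases, and neither is shared with miR-24.

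Libraries held 2120408 to 13714841 gene reads except control replicate 1, which held 51474. In that library 1 read was worth 16.3 CPM (reads of a gene scaled to a library size common to all libraries) and 3 reads 48.8 CPM, and 113 reads fell in interferon response genes, against 4435 to 28848 elsewhere. T cell markers summed to 3306 to 5514 CPM. Of the 35 genes, 29 passed the filter on low counts and were tested. The labels do not say which libraries came from separate mice or what a shared replicate number stands for. In the main fit, p-values measure the spread between libraries that is left after the replicate number is accounted for.

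With miR-24, 3 interferon response genes rose against the control mimic: Ifitm3, a restriction factor in endosomal membranes, Oasl2, a member of the 2-5A synthetase family that mouse cells use against RNA viruses, and Plscr1, a phospholipid scramblase with antiviral activity. They are 3 of 29 tested, where 2.32% of all 12952 genes tested rose and 4.56% were called in either direction (edgeR quasi-likelihood test with the replicate number as a block, Benjamini-Hochberg adjusted p under 0.05). With miR-23a, 0 of 29 were called, against 0.425% of all genes (0.0386% higher and 0.386% lower). DESeq2 and limma voom also called 0, and 5 of 29 had an unadjusted p under 0.05, as did 17.0% of all genes. With miR-27a, 2 of 29 were called, against 3.07% of all genes: Ifitm3 rose, as did 1.75% of genes, and Plscr1 fell, as did 1.32%. The programs differed for miR-24 and miR-27a. Limma voom called none of Ifitm3, Oasl2 and Plscr1 with miR-24. DESeq2 called more of the 29 genes than edgeR with both mimics, and its share of all genes is not given here. Isg15, Ifit1, Mx1, Irf7, Stat2 and Rsad2, which are commonly used to read an interferon response, were not called in any comparison of mimics.

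The block decided all of these calls. Without the replicate number as a block, edgeR called 0 of 29 genes for each mimic against control. Leaving out single libraries moved the count for miR-24 from 3 to between 0 and 6, with 0 without miR-23a replicate 1, miR-24 replicate 2, miR-24 replicate 3 or control replicate 3, 1 without miR-23a replicate 3 or 4, miR-27a replicate 1, 2 or 3 or control replicate 4, and 6 without miR-24 replicate 1. These counts can hold genes other than the 3 named. Without the shallow control replicate 1, none of Ifitm3, Oasl2 and Plscr1 stayed called with miR-24. For miR-27a the count ran from 0 (without miR-27a replicate 3 or control replicate 3), through 1 (without miR-27a replicate 2 or control replicate 4), to 4 (without miR-24 replicate 1, miR-24 replicate 4 or miR-27a replicate 4), and for miR-23a it was 1 without control replicate 2 (Plscr1) and 0 in the other 15 fits.

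**Figure D1:**
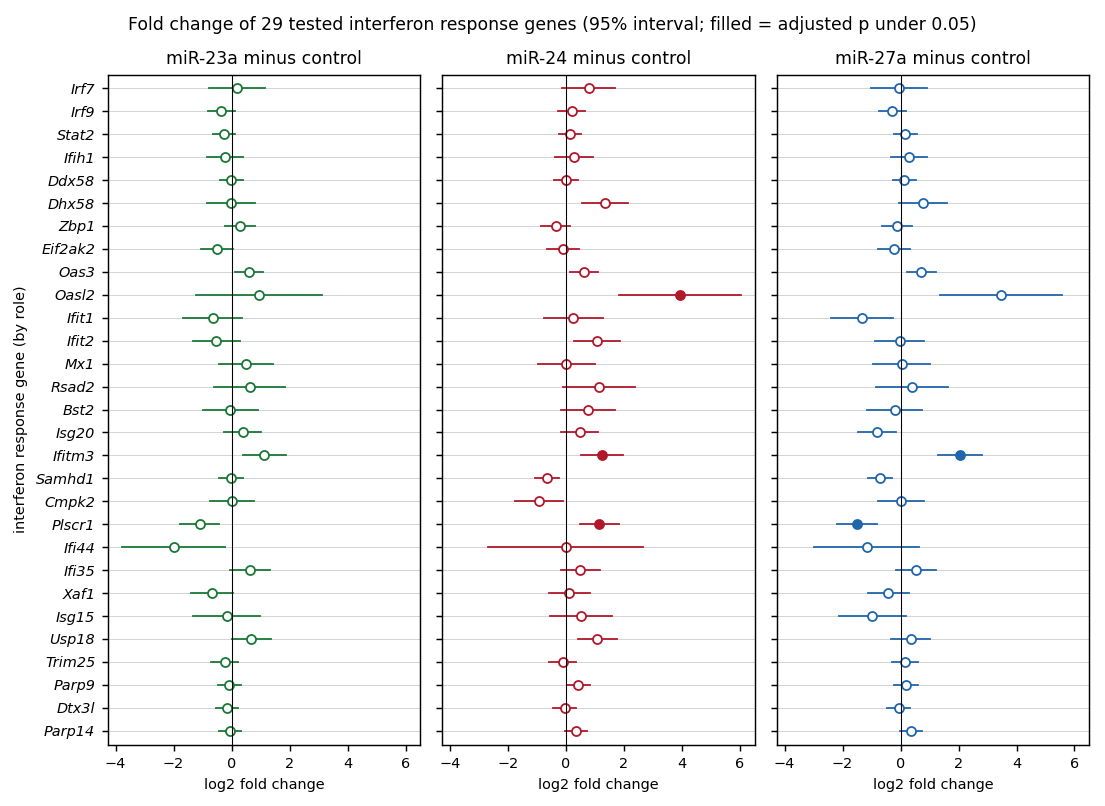
Log2 fold change (horizontal axis) of the 29 tested interferon response genes (vertical axis, ordered by role) for miR-23a, miR-24 and miR-27a against the control mimic. Lines are approximate 95% intervals, derived from the fold change and the F statistic of the edgeR fit. Filled points are the genes called at an adjusted p under 0.05, which are 3 with miR-24, 0 with miR-23a and 2 with miR-27a, and most other intervals cross 0.

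As a list, the 29 tested genes stood at a median log2 fold change of 0.34 with miR-24 against control, beside 0.04 over all genes, and 21 of 29 values were positive, beside 53.1% of all genes. With miR-23a the median was -0.05 and 11 values were positive, and with miR-27a the median was 0.01 and 15 were positive. Over all genes the medians of these comparisons were 0.04 and 0.02, with 52.93% and 51.36% of values positive. The 3 comparisons share the 4 control libraries. The median with miR-24 lay between 0.28 and 0.47 whichever library was left out. These figures describe the 29 genes, and no test of the list was made. An interval of 95% left out a rise of 1 on the log2 scale for 14 of the 29 genes with miR-24, 20 with miR-23a and 21 with miR-27a.

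The microRNA mimics were also compared with each other, in the same fit, where the control libraries enter only through the block and the estimate of the spread. Against miR-23a, 4 of 29 genes were higher with miR-24 and 0 lower, where 2.65% of all genes rose, 2.73% fell and 5.38% were called in all: Dhx58, Ifit2, Oasl2 and Plscr1. Against miR-27a, 2 of 29 were higher with miR-24 and 0 lower, where 1.80% of genes rose, 2.62% fell and 4.42% were called in all: Isg20 and Plscr1. Between miR-27a and miR-23a, 1 of 29 was called, where 2.95% of genes were called, 1.99% higher and 0.957% lower, and it was Isg20, lower with miR-27a. The medians were 0.40 for miR-24 against miR-23a with 23 of 29 positive, 0.24 against miR-27a with 18 positive, and 0.10 for miR-27a against miR-23a with 16 positive. Over all genes they were 0.009, 0.027 and -0.031, with 50.91%, 52.15% and 47.17% of values positive. Without the block the counts were 1, 1 and 0, and the gene that was called each time was Plscr1. Against miR-23a, the miR-24 count was 1 without miR-24 replicate 2, 2 without any 1 miR-23a library or miR-24 replicate 3, and 5 without miR-27a replicate 4. Against miR-27a it was 1 without miR-24 replicate 1 or 3 or miR-27a replicate 1, 2 or 3, and 5 without miR-27a replicate 4. For miR-27a against miR-23a it was 0 without any 1 miR-23a library or miR-27a replicate 2 or 3, and 2 without miR-24 replicate 1, miR-24 replicate 4 or miR-27a replicate 4.

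A common response was read as the mean of the 3 microRNA mimics against the control mimic. It called 1 of 29 genes, where 0.602% of all genes rose, 0.903% fell and 1.51% were called in all: Ifitm3, with a log2 fold change of 1.47 ± 0.32 (SE; edgeR adjusted p = 0.0318). The median over the 29 genes was 0.04, beside 0.02 over all genes, and 17 of 29 values were positive, beside 51.57% of all genes. The call on Ifitm3 was lost without the block (adjusted p = 0.287) and without any one of miR-23a replicate 4, miR-24 replicate 2, miR-27a replicate 2, miR-27a replicate 3 and control replicates 1, 3 and 4, and when control replicate 2 was left out the count was 3, or 2 in the fit lacking miR-24 replicate 1. An F test for any difference among the 4 mimics called 7 of 29 genes, beside 9.68% of all genes: Dhx58, Ifit2, Ifitm3, Isg20, Oasl2, Plscr1 and Samhd1. The 7 genes did not share 1 order of the mimics. Without the block it called Plscr1 only, and single libraries left out gave 2 (without miR-24 replicate 3) to 8 genes, with 3 without miR-23a replicate 3 or miR-24 replicate 2. Plscr1 and Ifitm3 were called in all 16 of those fits, Ifit2 in 13, Dhx58 and Oasl2 in 11, Samhd1 in 9 and Isg20 in 8.

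**Figure D2:**
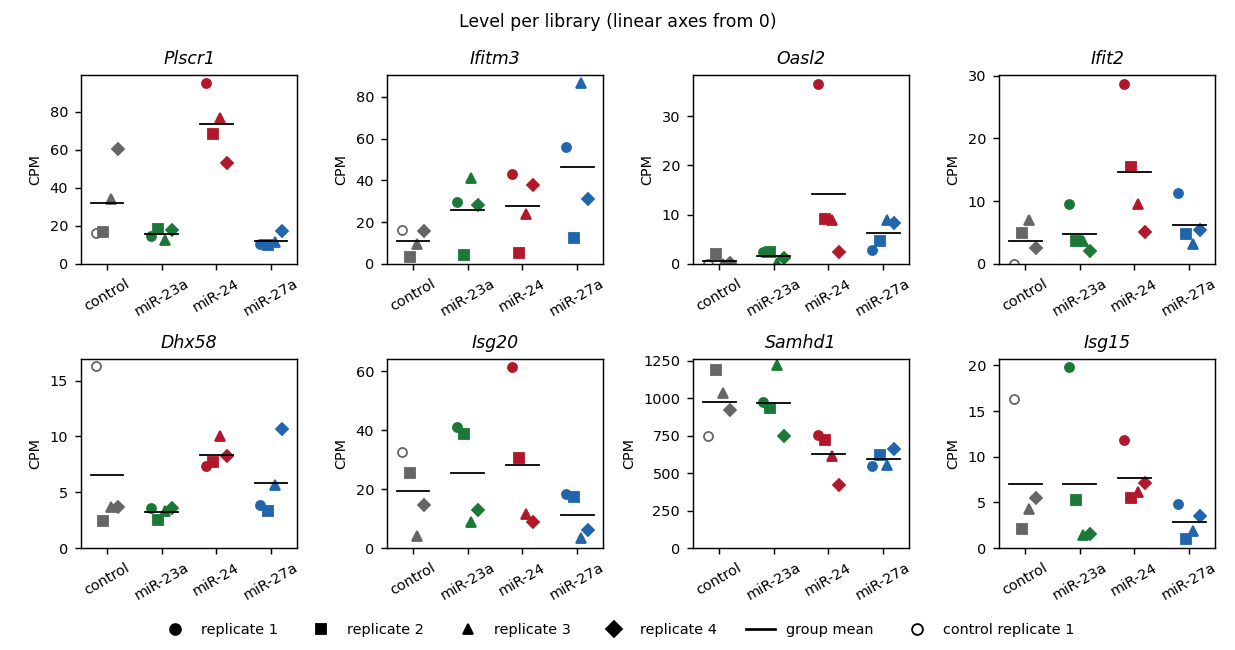
Level in CPM (vertical axes, linear from 0) in each library of the 7 genes that differed among the mimics and of Isg15, by mimic (horizontal axis), with 1 marker shape for each replicate number and black lines at the group means. The open circle is control replicate 1, where 1 read is 16.3 CPM. For Plscr1, the miR-24 libraries (53.1 to 95.2 CPM) lie above every miR-23a and miR-27a library.

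Plscr1 had the smallest adjusted p of the 29 genes for a difference among the mimics (0.000122 in edgeR's F test). In replicate order it stood at 16.3, 16.7, 33.9 and 60.5 CPM with the control mimic, of which the first is 1 read. With miR-23a it was 14.8, 18.2, 12.4 and 18.0 CPM. With miR-24 it was 95.2, 68.3, 76.9 and 53.1 CPM, and with miR-27a 10.3, 9.86, 11.4 and 17.3 CPM. The miR-24 libraries overlapped no library of miR-23a or miR-27a, while control replicate 4 lay among them. The log2 fold change of miR-24 was 2.25 ± 0.30 (SE) against miR-23a (edgeR adjusted p = 0.000408) and 2.63 ± 0.32 against miR-27a (adjusted p = 0.000205). Both calls held without the block (0.00446 and 0.00350), in each of the 16 fits without 1 library and under every other setting tried. Against control, the value was 1.14 ± 0.32 with miR-24 (adjusted p = 0.0491) and -1.49 ± 0.33 with miR-27a (0.0195), and with miR-23a it was -1.10 ± 0.32, which was not called (0.126). The first of these was lost without the block (0.166) and in 12 of 16 fits without 1 library, those other than without miR-23a replicate 2, miR-24 replicate 1, miR-24 replicate 4 or control replicate 4. The second was lost without the block (0.0741) and without miR-27a replicate 1, 2 or 3 or control replicate 3 or 4.

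The Plscr1 transcript carries seed matches of the 2 mimics under which its level was lowest. Its gene lies at chr9:92249750-92272278 on the plus strand (GRCm38), and its longest annotated 3-prime UTR of 690 bases (GENCODE M21) held an 8mer of miR-27a at chr9:92271814-92271821 and a 7mer of miR-23a at chr9:92271837-92271843. It held no 7mer or 8mer of miR-24. Each site is shown in a window of 30 bases with the match in capitals.
Plscr1 miR-27a site: ttaaggttttcACTGTGAAtttgggaaaac
Plscr1 miR-23a site: ggaaaacagttATGTGAAtttatatacata
An 8mer of miR-27a was present in 6.66% of the 11022 tested genes searched and a 7mer or 8mer of miR-23a in 25.5%. A match is a description of the annotated sequence, and whether a mimic acts there was not tested. Over the 29 genes, 8 held a match of miR-23a, 10 of miR-24 (27.1% of all genes) and 6 of miR-27a (3306 of the 11022 genes). The site of miR-27a in Rsad2 is the other 8mer of that microRNA among them, and Rsad2, the antiviral enzyme viperin, stood at 0.41 ± 0.60 with miR-27a against control (edgeR adjusted p = 0.714). An 8mer of miR-24 lay in 4 of the 29 genes, beside 8.95% of all genes searched. With miR-24 against control, Stat2 stood at 0.15 ± 0.18, Ifih1 at 0.27 ± 0.31, Parp14 at 0.34 ± 0.18 and Cmpk2 at -0.93 ± 0.40. The 8mers of miR-23a lay in Eif2ak2 and Rsad2, at -0.51 ± 0.26 and 0.62 ± 0.58 with miR-23a against control. None of these was called.

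Ifitm3 stood higher with each microRNA mimic than with the control mimic at every replicate number. It stood at 16.3, 3.14, 9.37 and 15.9 CPM with the control mimic and at 29.8, 4.33, 41.0 and 28.2 CPM with miR-23a. With miR-24 it was 43.1, 5.26, 24.0 and 37.9 CPM, and with miR-27a 56.1, 12.2, 86.5 and 31.0 CPM. In every group the lowest library was the one with number 2, so the groups overlapped. The log2 fold change was 2.04 ± 0.36 (SE) with miR-27a (edgeR adjusted p = 0.00604), 1.24 ± 0.35 with miR-24 (0.0497) and 1.13 ± 0.35 with miR-23a (0.143, not called). The difference between miR-24 and miR-27a was -0.80 ± 0.31 and was not called (0.160). The miR-27a call was lost without the block (0.207) and without miR-27a replicate 3 or control replicate 3. The miR-24 call was lost without the block (0.391) and in 12 of 16 fits without 1 library, and held without miR-23a replicate 2, miR-24 replicate 1, miR-27a replicate 4 or control replicate 2. Control replicate 1 held 1 read of the gene.

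Within the 2-5A synthetase family, whose members make the second messenger that activates RNase L or act as antiviral relatives of it, 2 of 5 genes could be tested. Oasl2 stood at 0, 1.96, 0 and 0.152 CPM with the control mimic, where the 0 reads of control replicate 1 allow up to 48.8 CPM. It stood at 2.33, 2.51, 0.264 and 1.30 CPM with miR-23a. With miR-24 it was 36.6, 9.13, 8.83 and 2.38 CPM, and with miR-27a 2.90, 4.70, 8.90 and 8.22 CPM. All miR-24 and all miR-27a libraries lay above all control libraries, and the miR-24 values spread over more than those of any other group. The fitted log2 fold change was 3.92 ± 0.99 with miR-24 (edgeR adjusted p = 0.0370), 3.46 ± 0.99 with miR-27a (0.0680, not called) and 0.94 ± 1.02 with miR-23a (0.659), and these depend on how libraries at 0 are treated. Between miR-24 and miR-27a the value was 0.46 ± 0.76 (0.806), and the miR-24 call against miR-23a was 2.98 ± 0.80 (0.0413). The call against control was lost without the block (0.0696), without miR-23a replicate 1 or 2, miR-24 replicate 2 or 3 or control replicate 1, 3 or 4. The call against miR-23a was lost without the block (0.1003), and was kept only when the library left out was miR-24 replicate 4, control replicate 2 or 3 or one from miR-27a. Oas3, at 19.8 to 39.7 CPM with the control mimic and 40.8 to 50.7 CPM with miR-27a, did not overlap between these groups but was not called (0.72 ± 0.24, edgeR adjusted p = 0.0946). Control replicate 1 held 2 reads of Oas3.

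The other 3 genes of that family were near the floor of detection. Oas1a, the mouse gene for 1 of several near-identical 2-5A synthetases, had 5 reads in all, 4 of them in 1 miR-24 library. Oas2 had 40 reads in the miR-24 libraries, 25 of them in 1 library, and 2, 5 and 2 reads with control, miR-23a and miR-27a. Oasl1, which represses translation of Irf7 in mouse cells, had 9 reads, all with miR-24 and 8 of them in 1 library. Oas1a and Oasl1 each had a read in 2 libraries and Oas2 in 9, and a library with 0 reads allows up to 3.

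The IFIT genes encode proteins that bind viral RNA lacking host cap marks. Ifit2 stood at 0, 4.90, 7.03 and 2.59 CPM with the control mimic and at 9.59, 3.64, 3.61 and 2.06 CPM with miR-23a. In the miR-24 libraries it was 28.7, 15.5, 9.51 and 5.07 CPM, and with miR-27a 11.3, 4.70, 3.19 and 5.48 CPM. The miR-24 library was the highest of its number except at number 4, where the miR-27a library was, but the groups overlapped because the levels differed between the numbers. Ifit2 rose by 1.61 ± 0.35 on the log2 scale with miR-24 against miR-23a (edgeR adjusted p = 0.0113). This call was lost without the block (0.183) and without miR-24 replicate 2 (0.0692). Against control and miR-27a the values were 1.08 ± 0.38 (0.115) and 1.10 ± 0.36 (0.0906). Ifit1 stood at 2.89 to 10.2 CPM with miR-24 and 0.912 to 4.19 CPM with miR-27a, a log2 difference of 1.59 ± 0.49 that was not called (0.0693). Ifit3 was not tested: it had 4, 22, 17 and 0 reads with control, miR-23a, miR-24 and miR-27a, and it has a near-identical neighbour, so its reads may be split.

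Isg20, an exonuclease for single-stranded RNA, was, beside Plscr1, called lower with miR-27a than with another microRNA mimic. It stood at 18.4, 17.4, 3.50 and 5.97 CPM with miR-27a and at 41.2, 38.7, 8.80 and 12.9 CPM with miR-23a. In the miR-24 libraries it was 61.5, 30.8, 11.5 and 8.84 CPM, and with the control mimic 32.6, 25.6, 3.96 and 14.8 CPM, of which the first is 2 reads. In every group numbers 1 and 2 were above numbers 3 and 4, and at each number the miR-27a library was the lowest. The log2 difference of miR-24 from miR-27a was 1.27 ± 0.30 (edgeR adjusted p = 0.0187) and of miR-27a from miR-23a -1.19 ± 0.29 (0.0323). Both were lost without the block (0.439 and 0.620). The first was also lost without miR-24 replicate 1 or 3 or miR-27a replicate 1, 2 or 3, and the second without any 1 of the 8 libraries compared. Against control, the value was -0.81 ± 0.32 with miR-27a (0.156).

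Samhd1, a dNTP hydrolase that restricts retroviruses, was lower with miR-24 and miR-27a in the fitted values. It took 37.8% of all reads of the 35 genes. It stood at 749, 1193, 1036 and 925 CPM with the control mimic and at 978, 938, 1226 and 748 CPM with miR-23a. With miR-24 it was 758, 722, 614 and 424 CPM, and with miR-27a 549, 621, 557 and 663 CPM. The miR-27a libraries lay below all control and all miR-23a libraries. The F test among the 4 mimics called it (edgeR adjusted p = 0.0237), although no single pair passed: -0.66 ± 0.20 with miR-24 (0.0619), -0.71 ± 0.20 with miR-27a (0.0555) and -0.03 ± 0.20 with miR-23a (0.961) against control. The F test was lost without the block (0.0898) and in 7 fits without 1 library, those without miR-23a replicate 3, miR-24 replicate 2 or 3, miR-27a replicate 1, 2 or 3 or control replicate 4. No match of miR-24 or miR-27a was found in its annotated 3-prime UTR.

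Among the nucleic acid sensors, Dhx58, the RIG-I relative LGP2, was called. It stood at 7.35, 7.73, 10.0 and 8.24 CPM with miR-24 and at 3.58, 2.51, 3.34 and 3.59 CPM with miR-23a. With miR-27a it was 3.87, 3.29, 5.63 and 10.6 CPM, and with the control mimic 16.3, 2.45, 3.69 and 3.66 CPM, of which the first is 1 read. The miR-24 and miR-23a libraries did not overlap, and the log2 fold change between them was 1.37 ± 0.35 (edgeR adjusted p = 0.0256). This call was lost without the block (0.102) and without any 1 miR-23a library or miR-24 replicate 2 or 3. Against control, miR-24 stood at 1.34 ± 0.38 (0.0523, not called). An antisense transcript overlaps the gene and the strand setting of the counting is not given in the sources used here, so reads of both cannot be told apart.

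The other 4 sensors were not called in any comparison. Ddx58 (RIG-I) stood at 83.0 to 228 CPM with the control mimic and at 97.7 to 164 CPM with miR-24. The value of 228 CPM is 14 reads in control replicate 1. Its log2 fold changes against control were 0.00 ± 0.20 for miR-23a, -0.01 ± 0.20 for miR-24 and 0.14 ± 0.20 for miR-27a. Ifih1 (MDA5) stood at 0.27 ± 0.31 with miR-24 and 0.29 ± 0.30 with miR-27a, and Eif2ak2 (PKR) at -0.12 ± 0.26 and -0.22 ± 0.26. Zbp1, which senses Z-form nucleic acid and triggers necroptosis, stood at -0.35 ± 0.24 with miR-24 and 0.29 ± 0.25 with miR-23a. The edgeR adjusted p of these 4 genes against control was at least 0.322.

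The transcription factors of the response were not called either. Irf7, which amplifies interferon production, stood at 6.02, 6.75, 4.16 and 5.76 CPM with miR-24 and at 0, 1.96, 3.15 and 4.12 CPM with the control mimic. These libraries did not overlap, but control replicate 1 had 0 reads, and the fitted value was 0.78 ± 0.44 (edgeR adjusted p = 0.338). Stat2, a subunit of ISGF3, stood at 66.3 to 108 CPM with miR-24 and 65.2 to 97.7 CPM with the control mimic (0.15 ± 0.18). Irf9, its DNA-binding subunit, stood at 55.9 to 90.9 CPM and 32.6 to 100.3 CPM (0.20 ± 0.22). In control replicate 1, Stat2 had 6 reads (97.7 CPM) and Irf9 had 2 (32.6 CPM). Irf7 and Irf9 each overlap another gene, Phrf1 and Rnf31, in the annotation.

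Isg15, a ubiquitin-like modifier and one of the most strongly induced interferon response genes, did not pass in a comparison of mimics. It stood at 16.3, 2.06, 4.23 and 5.49 CPM with the control mimic, of which the first is 1 read, and at 19.8, 5.24, 1.41 and 1.53 CPM with miR-23a. With miR-24 it was 11.9, 5.51, 6.11 and 7.15 CPM, and with miR-27a 4.84, 0.939, 1.90 and 3.55 CPM. All miR-24 libraries lay above all miR-27a libraries, with a log2 difference of 1.48 ± 0.51 that was not called (edgeR adjusted p = 0.109). Usp18, the protease that removes ISG15 and dampens receptor signalling, stood at 27.9, 34.0, 48.8 and 24.9 CPM with miR-24 and at 32.6, 34.4, 12.4 and 9.14 CPM with the control mimic (1.08 ± 0.33, adjusted p = 0.0656). The first of the control values is 2 reads. Parp9, Dtx3l and Parp14, which act in ADP-ribose and ubiquitin marking of proteins, and the ubiquitin ligase Trim25 had values between -0.12 and 0.43 with miR-24, and none was called.

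The remaining effectors that could be tested gave no call between mimics. Bst2, the tether that holds budding virus at the membrane, stood at 10.1 to 22.4 CPM with miR-24, above all miR-27a libraries at 5.63 to 9.39 CPM, with a log2 difference of 0.95 ± 0.41 (edgeR adjusted p = 0.211). Mx1, a dynamin-like GTPase that many laboratory mouse strains carry in a defective form, stood at 0.01 ± 0.47 with miR-24 against control. Rsad2 stood at 1.14 ± 0.59, Ifi35 at 0.50 ± 0.32, Xaf1 at 0.12 ± 0.34 and Ifi44 at -0.01 ± 1.27. Cmpk2, a mitochondrial nucleotide kinase beside Rsad2, stood at -0.93 ± 0.40, the lowest value of the 29 with miR-24. Mx2 had at most 2 reads in a library. Rtp4 had 25 reads with miR-24, 16 of them in 1 library, and 2, 0 and 6 with control, miR-23a and miR-27a, and it overlaps Masp1.

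**Figure D3:**
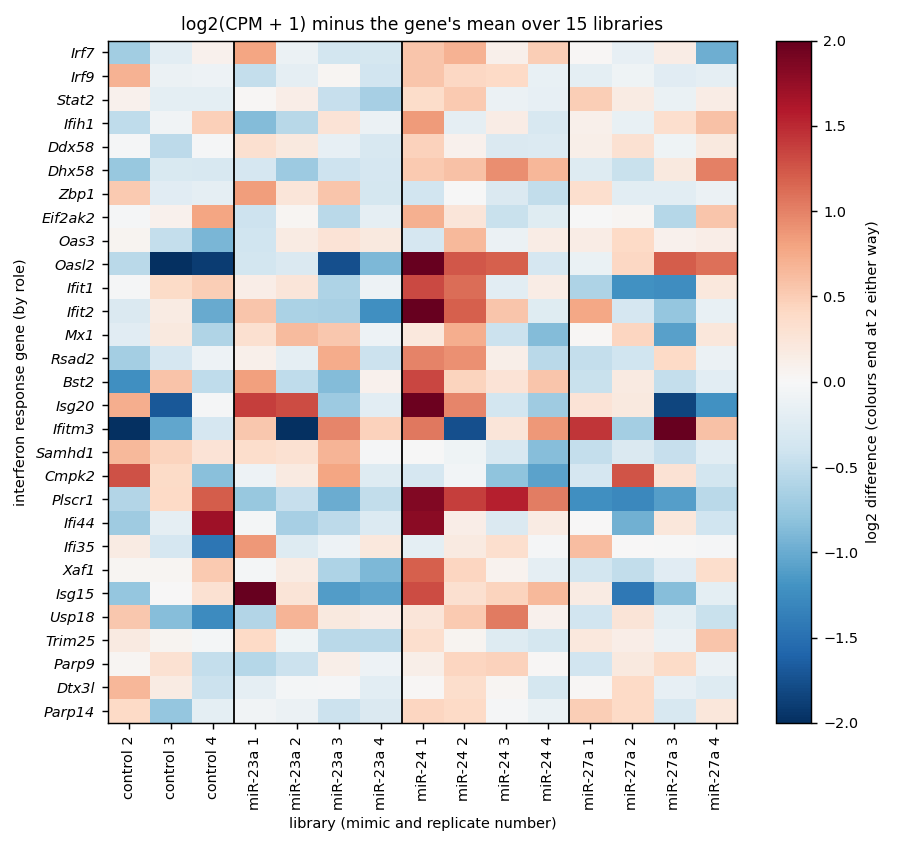
Log2(CPM + 1) of the 29 tested genes (rows, by role) minus each gene's mean over 15 libraries (columns, by mimic and replicate number; control replicate 1 left out because of its depth), red above and blue below the mean, with colours ending at 2 either way. Plscr1 is red in all 4 miR-24 columns and Oasl2 and Ifit2 in those of replicates 1, 2 and 3, most in replicate 1, whose mean over the 29 genes was 5.31 on the log2-CPM scale. These genes are also red outside miR-24, as Oasl2 in miR-27a replicates 2, 3 and 4 and Plscr1 in control replicates 3 and 4. Ifit2 is also red in replicate 1 of miR-23a and of miR-27a.

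The list mean varied within groups as well as between them. The mean log2-CPM of the 29 genes was 5.31, 4.93, 4.62 and 4.38 in the 4 miR-24 libraries and 3.55, 4.29, 4.19 and 4.26 in the control libraries. It was 4.64, 4.35, 4.21 and 4.13 with miR-23a and 4.46, 4.28, 4.29 and 4.47 with miR-27a. Every miR-24 library lay above every control library, while miR-24 replicate 4 lay below miR-27a replicate 1, miR-27a replicate 4 and miR-23a replicate 1. The value of 3.55 is from control replicate 1, the library of 51474 gene reads. There Irf7, Oasl2, Ifit1, Ifit2, Rsad2, Cmpk2 and Ifi44 had 0 reads, which allows up to 48.8 CPM for each. The control mean of 4.07 ± 0.35 (SD, n = 4) became 4.25 without replicate 1. The same mean over all genes tested was not set beside these values, so they describe the list alone.

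**Figure D4:**
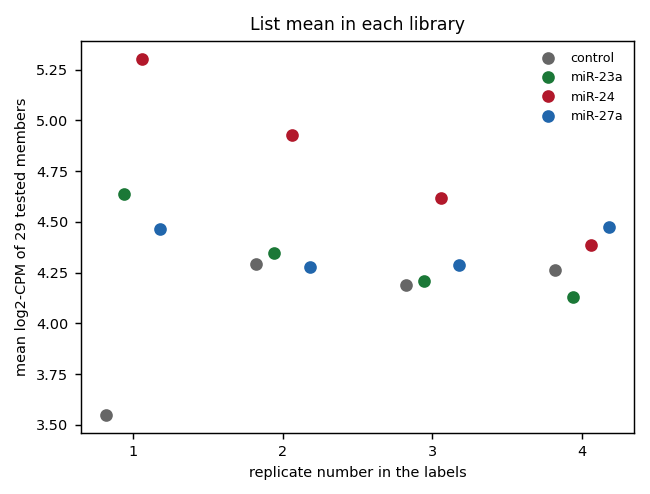
Mean log2-CPM of the 29 tested genes (vertical axis) in each of the 16 libraries, by replicate number in the labels (horizontal axis) and mimic (colour). The miR-24 library is the highest at numbers 1, 2 and 3 and lies below the miR-27a library at number 4 (4.38 against 4.47), and control replicate 1 is the lowest of all at 3.55.

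A test of the replicate numbers, which was added after the data were seen, called 5 of the 29 genes, beside 13.7% of all genes: Cmpk2, Ifit2, Ifitm3, Isg15 and Isg20. Isg20 had the smallest adjusted p (4.1e-05 in edgeR), with mean levels of 38.4, 28.1, 6.93 and 10.6 CPM at numbers 1 to 4. Ifitm3 (0.000185) was lowest at number 2, with a mean of 6.23 CPM against 36.3 at number 1, and Ifit2 (0.00984) was highest at number 1. What the numbers stand for (animal, day or other batch) cannot be told from the labels. Without miR-23a replicate 1 the count was 2, and without miR-23a replicate 3, miR-24 replicate 2, miR-27a replicate 2 or miR-27a replicate 3 it was 3.

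The promoters of the list were searched for the letters of an interferon-stimulated response element. The motif, GAAA followed after any 2 bases by GAAA, on either strand from 250 bases before to 50 after the annotated start (RefSeq, GRCm38.p6), was found for 12 of the 26 members with an entry and for 3.99% of 27025 genes. Isg15 and Ifit1, classical members of the response that were not called between mimics, are shown with the matched bases in capitals.
Isg15 promoter: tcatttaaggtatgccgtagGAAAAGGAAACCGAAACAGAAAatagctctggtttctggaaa
Ifit1 promoter: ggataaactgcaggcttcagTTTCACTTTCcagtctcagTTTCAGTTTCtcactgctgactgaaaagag
The Isg15 stretch lies at chr4:156200855-156200916 on the minus strand, with 3 overlapping matches, and the Ifit1 stretch starts at base 34640765 of chromosome 19 on the plus strand, with 2 matches on the opposite strand. Among the called genes, Ifitm3 had 2 matches, while Plscr1, Oasl2, Ifit2, Isg20 and Samhd1 had none in this window, which says only that these letters are not there, and Dhx58 had no entry.

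The genes of the interferon pathway around the list were counted in the same fit. Of 58 other interferon-stimulated genes tested, 3 rose with miR-24 against control and 0 fell, where 2.32% of all genes rose and 2.25% fell. Their median was 0.49, beside 0.04 over all genes, and 44 of 58 values were positive, beside 53.1% of all genes. The 3 called genes were Ly6a, the T cell activation antigen Sca-1 (0.86 ± 0.19, edgeR adjusted p = 0.0169), Pml, the organiser of PML nuclear bodies (0.81 ± 0.18, 0.0177), and Tap1, a peptide transporter of class I antigen presentation (0.63 ± 0.17, 0.0392). With miR-23a 0 of the 58 were called, with 9 at an unadjusted p under 0.05, as had 17.0% of all genes, and with miR-27a 1 rose, as did 1.75% of all genes (Ifi27l2a, 1.07 ± 0.23, 0.0193). The median of the 58 was 0.03 with miR-23a (31 positive) and 0.17 with miR-27a (35 positive), beside 0.04 and 0.02 over all genes. Against miR-23a, 9 of 58 rose and 1 fell with miR-24 (2.65% and 2.73% of all genes), and against miR-27a 3 rose and 0 fell (1.80% and 2.62%). The medians were 0.26 and 0.16, beside 0.009 and 0.027 over all genes. Between miR-27a and miR-23a, 3 rose and 0 fell with miR-27a (1.99% and 0.957%). All of these calls between microRNA mimics were lost without the block (edgeR adjusted p of at least 0.0807). Without the block the calls against control on Ly6a, Pml, Tap1 and Ifi27l2a were lost as well (0.350, 0.163, 0.182 and 0.271). Ly6a and Pml were also lost without miR-24 replicate 2 or 3 or control replicate 3 or 4, Ifi27l2a without miR-27a replicate 1, 2 or 3 or control replicate 3, and Tap1 in 10 of 16 fits without 1 library. Of 25 genes typical of interferon gamma (GTPases and MHC genes), 1 rose and 1 fell with miR-24: Tap2, the partner of Tap1 (1.01 ± 0.27, 0.0427), and Ifi47, a GTPase (-0.73 ± 0.18, 0.0283), both lost without the block (0.115 and 0.219). These are 2 of 25, beside 4.56% of all genes, and the median of the list was -0.05 with 12 of 25 values positive.

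Of the type I interferons, Ifnb1 and the 6 Ifna genes of the list had 0 reads in all 16 libraries, each of which allows up to 3 reads. Ifnk, interferon kappa, had a read in 15 libraries, with 60, 81, 76 and 90 reads with control, miR-23a, miR-24 and miR-27a, and was not called against control (-0.33 ± 0.51 with miR-24, 0.01 ± 0.50 with miR-23a and 0.98 ± 0.52 with miR-27a; edgeR adjusted p = 0.772, 0.994 and 0.273). Ifng, the type II interferon, had 11 reads, 10 of them with miR-24.

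Receptors and sensors gave few calls, beside 4.56% of all genes called with miR-24 and 0.425% with miR-23a. Of 16 receptor and JAK-STAT genes, 1 fell with miR-24 against control (Ifnar2, -0.62 ± 0.18, edgeR adjusted p = 0.0489) and 1 with miR-23a (Ifngr2, a chain of the interferon gamma receptor, -1.31 ± 0.22, 0.00627). Ifnar2 was lost without the block (0.249) and in 14 of 16 fits without 1 library, while Ifngr2 held without the block (0.0457) and was lost without miR-23a replicate 3 or control replicate 3. Ifnar1 stood at -0.09 ± 0.16 with miR-24. Of 25 genes of double-stranded RNA and nucleic acid sensing, 2 were called with miR-24 against control: Irf8, an interferon regulatory factor, rose with miR-24 (1.73 ± 0.35, 0.00852; 0.266 without the block, and lost without miR-24 replicate 3 or control replicate 3), and Tmem173 fell.

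Tmem173 encodes STING, the adaptor through which cytosolic DNA leads to interferon production. It stood at 51.5, 47.5, 57.8 and 63.6 CPM with miR-24 and at 81.4, 124, 142 and 101 CPM with the control mimic. With miR-23a it was 150, 115, 160 and 109 CPM, and with miR-27a 114, 98.6, 136 and 114 CPM. All miR-24 libraries lay below all other libraries. The log2 fold change of miR-24 was -1.10 ± 0.19 (SE) against control (edgeR adjusted p = 0.00283), -1.26 ± 0.18 against miR-23a (0.000638) and -1.06 ± 0.18 against miR-27a (0.00245). All 3 calls held without the block (0.0117, 0.00519 and 0.0175) and in each of the 16 fits without 1 library.

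Markers of other cell types were summed in each library. Dendritic cell markers, a list that holds genes such as Ccr7 that T cells also express, summed to 256 to 597 CPM with miR-24, 237 to 996 CPM with the control mimic, 218 to 499 CPM with miR-23a and 185 to 613 CPM with miR-27a. Myeloid markers summed to 26.9 to 43.3 CPM with miR-24 and to 15.7 to 29.8 CPM with the control mimic, 14.3 to 31.2 CPM with miR-23a and 26.1 to 38.3 CPM with miR-27a. Plasmacytoid dendritic cell markers, a list that holds Irf8, summed to 65.2 to 82.5 CPM with miR-24 and 32.6 to 112 CPM with the control mimic, with Clec10a at 0 in all libraries. NK cell markers summed to 1.00 to 5.76 CPM with miR-24 and at most 0.939 CPM in the other groups, with Ncr1 and Klra8 at 0 in all libraries. Granulocyte markers summed to 0.658 to 1.61 CPM with miR-24 and at most 0.882 CPM in the other groups, with S100a9 at 0 in all libraries. The part of such cells in the interferon response genes was not tested. In bulk RNA, fewer cells of a type and less RNA per cell cannot be told apart.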

How the data were processed

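Raw counts of reads per gene symbol (23337 symbols) were deposited by the authors, 1 file for each library, and 5 further lines that sum up other reads held 64.7% to 77.6% of the reads in a file and were left out. Bowtie2, TopHat, DESeq and mm10 are named in the submitters' processing notes. The counting program, annotation and strand setting are not given in the sources used here. Per the labels, 1 ng of RNA from 150000 to 800000 sorted cells was amplified (NuGEN Ovation V2) and sequenced as single 50 nt reads.

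Groups and replicate numbers come from the sample titles. The fit used edgeR 4.0.16 (R 4.3.3) on the 12952 genes that filterByExpr kept by group, with TMM scaling, and 1 fit of all 16 libraries with mimic and replicate number as terms. Comparisons used the robust quasi-likelihood test, two-sided, Benjamini-Hochberg adjusted over all genes at 0.05. This test gives no SE. Each SE printed is the absolute log2 fold change divided by the square root of the F statistic. The intervals follow from it, and both are approximate. The script was tested on simulated data. Levels in CPM are relative to TMM-scaled library sizes, and a prior count of 2 was added for log2-CPM.

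The block was kept throughout because it was asked for with the gene list. Over 4746 genes of mean log2-CPM above 5, all same-numbered libraries correlated above 0.1 for 3 of the 6 pairs of groups (miR-27a with control, miR-23a with miR-24, miR-23a with miR-27a). The lowest value was 0.03 for control with miR-24, -0.12 for control with miR-23a and -0.01 for miR-24 with miR-27a, so the numbers pair the libraries only in part.

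The list and the further gene lists were chosen with earlier results of these data known, and support from them is not independent. Members named in full are those called between mimics, the 8 with the smallest p among the mimics and a set of well-known response genes. Alternatives were the fit without block, RLE scaling, DESeq2 1.42.0, limma 3.58.1 voom with sample weights, other count filters, Rn45s left out, the compared groups only, the number 1 libraries left out, and each library left out. Seed matches were searched in the longest 3-prime UTR of GENCODE M21 (GRCm38, the assembly of mm10) and loci are from that annotation.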

Additional observations from a re-analysis of the deposited data

Results flagged for a closer look

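Among 76 groups of 4 libraries checked, 4 held a library far from the other 3, where chance flags about 1 in 20. Oasl2 stood at 1.96 CPM (20 reads) in control replicate 2, against 0 to 0.152 CPM in the other control libraries. Dhx58 stood at 16.3 CPM in control replicate 1, which is 1 read in that shallow library, against 2.45 to 3.69 CPM. Irf7 stood at 7.26 CPM (81 reads) in miR-23a replicate 1, against 2.73 to 3.42 CPM in the other miR-23a libraries. The mean log2-CPM of the 29 tested interferon response genes was 3.55 in control replicate 1, against 4.19 to 4.29 in the other control libraries. Several of these genes had 0 reads in that shallow library.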

How the results depend on the processing

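The counts of called interferon response genes depended on the replicate block. Without the replicate block as a term, edgeR called 0 of them for miR-24 against control, 0 for miR-27a against control, 1 for miR-24 against miR-23a, 1 for miR-24 against miR-27a, 0 for miR-27a against miR-23a, 0 for the mean of the microRNA mimics and 1 for any difference. RLE scaling called 5 for miR-24 against control. DESeq2 called 7 for miR-24 and 5 for miR-27a against control, 4 for miR-24 against miR-27a, 2 for miR-27a against miR-23a, 3 for the mean of the mimics and 10 for the replicate numbers. Voom called 1 for miR-24 against control (Samhd1, lower, and none of Ifitm3, Oasl2 and Plscr1), 6 for miR-24 against miR-27a, 2 for miR-27a against miR-23a, 0 for the mean and 3 for any difference. Leaving out Rn45s gave 1 for miR-24 against control (Oasl2). The compared groups alone gave 1 for miR-24 and 4 for miR-27a against control and 1 for miR-24 against miR-27a. Without the number 1 libraries miR-24 against control had 3 (Dhx58, Oasl2 and Samhd1, not Ifitm3 or Plscr1), and the count was 1 for miR-27a against control, 1 for miR-24 against miR-23a, 1 for miR-24 against miR-27a and 0 for miR-27a against miR-23a. Apart from the fit without the block, the share of all genes called under each alternative is not given here. These counts can therefore not be read as above or below that share. The causes were not tested. Leaving out 1 library gave 0 to 6 for miR-24, 0 to 1 for miR-23a and 0 to 4 for miR-27a against control, 1 to 5 for miR-24 against miR-23a and against miR-27a, 0 to 2 for miR-27a against miR-23a, 0 to 3 for the mean, 2 to 8 for any difference and 2 to 7 for the replicate numbers. The list medians moved by less than 0.322, the residual SD of the list mean over libraries, under every alternative. That limit is wide. It is close to the median of 0.34 for miR-24 against control and exceeds that of 0.24 for miR-24 against miR-27a. It does not show that the medians were stable. Over all genes, edgeR without the block called 110, 17 and 22 for miR-24, miR-23a and miR-27a against control, where the block gave 591, 55 and 398. The depth of control replicate 1 (51474 gene reads) limits every comparison with control.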
